A study of Mus musculus with 1920 samples.

Results

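Microglia from the corpus callosum of mice in the demyelination stage of cuprizone treatment were compared with microglia from the corpus callosum of untreated mice. Cells were taken by their labels, and a well was kept if it held 20000 or more gene counts over 500 or more genes, with mitochondrial reads below 25% and spike-in reads below 50% of its total. This kept 161 of 190 demyelination wells (36, 46, 41 and 38 in replicates 1 to 4) and 173 of 190 untreated wells (45, 42, 46 and 40). Together they are 334 of the 1644 kept cells of the series, and their counts were summed per replicate into 8 of its 40 sums, 4 against 4. The mice were of the outbred CD1 strain and 16 weeks old in both groups, and no genetic change is labelled in either. Cuprizone is a copper chelator that, given in food, kills oligodendrocytes and strips myelin from the corpus callosum. The sources used here do not give its dose, its duration or the sort gates. All cells went through the same preparation, in which homogenate was spun on layered Percoll, antibodies to CD206, Ly6G, Ly6C, CD45 and CD11b were applied and single cells were sorted into wells. Smart-seq2 then read cDNA along the whole transcript without molecular identifiers. Demyelination cells lay on a plate with remyelination cells, and untreated corpus callosum cells on another with spinal cord cells, so treatment and plate cannot be told apart in any comparison here.

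Microglia are the resident macrophages of the brain. In healthy tissue they sense purines, chemokines and growth factors through a set of receptors that other macrophages carry little of, and these genes are often called homeostatic. When myelin breaks down, microglia take up the debris through surface receptors, digest it in lysosomes and pass the cholesterol on to lipoprotein particles. Genes of uptake, lysosomes and lipid transport are known to rise in that state, and many of them belong to a program named disease-associated.

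Demyelination sums held 15977939 to 19964472 counts and untreated sums 7916457 to 10871196. The median kept cell had 471755 gene counts in demyelination and 201705 in the untreated group, yet fewer detected genes (2137 and 2926). After each cell was thinned to 20000 counts, the mean of the replicate medians was 1329 ± 113 genes in demyelination and 2032 ± 37.3 in the untreated group (exact two-sided permutation test, p = 0.0286, the smallest that 4 against 4 allows; adjusted over 5 measures, 0.0476). Mitochondrial reads made up 1.61 ± 0.29% and 1.18 ± 0.06% (exact permutation test, adjusted p = 0.0476). Gene counts per spike-in count were 8.32 ± 2.08 and 10.7 ± 1.07, and their ranges overlapped (exact permutation test, adjusted p = 0.143). All 12 microglia markers had counts in both groups. Their summed level was 29831 to 39025 CPM in demyelination and 38425.5 to 41893 in the untreated group.

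Of 14057 genes tested, 433 rose (3.08%) and 292 fell (2.08%) in demyelination at an edgeR adjusted p under 0.05. The 4 demyelination sums lay all above the 4 untreated ones for 1229 genes (8.74%) and all below for 2069 (14.7%). The median log2 fold change of all genes tested was -0.33. Genes that rose were well expressed: 426 of the 433 had a mean of at least 50 CPM in demyelination. Of the 292 that fell, 174 had no count in any demyelination cell and a median of only 5.45 CPM in the untreated group. Calls of a fall were less stable than calls of a rise when 1 of the 8 replicates was left out: the fits then gave 264 to 325 genes higher (264 without untreated replicate 2, 274 without untreated replicate 4) and 46 to 65 lower. None of the 174 was called in all 8 of these fits. Of all genes that fell, 33 were, and each of these 33 had at least 50 CPM in the untreated group. The fall in the number of genes detected per cell went with these low-level calls, and its part in them was not tested.

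The count in each direction also depended on the scaling. With the summed spike-in counts in place of TMM factors, the median of all genes went from -0.33 to -1.55, 90 genes were called higher and 1047 lower. All 90 were among the 433, and no call changed its sign. Spike-in scaling takes the spike-in amount per well as equal on the 2 plates, which the sources used here do not state. The median spike-in count per kept well was 18059 ± 2087 in the untreated group and 59507 ± 9446 in demyelination (mean ± SD of replicate medians). Values on this scale are therefore not absolute RNA levels. Upper-quartile scaling moved the median by -0.20 and called 346 and 285, and DESeq2 with its own size factors called 650 and 1288. Levels below are TMM-scaled CPM given as mean ± SD over 4 replicates (untreated first), differences are log2 fold changes ± SE on that scale, and a spike-in value is the log2 fold change under spike-in scaling. In sums of sorted cells, fewer cells that express a gene and less of its RNA per cell cannot be told apart; the shares of cells with a read are given further on.

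**Figure D1:**
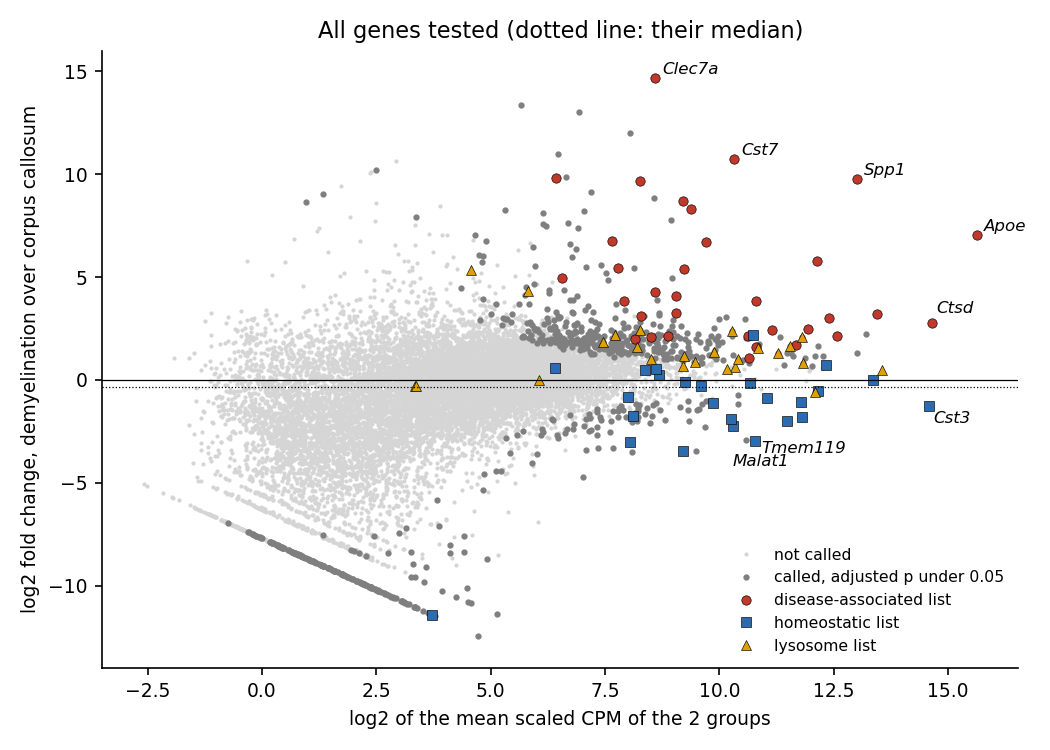
Each point is 1 of 14057 genes tested, with the log2 of its mean scaled CPM over the 2 groups on the x axis and its log2 fold change (demyelination over untreated corpus callosum) on the y axis; coloured points are members of 3 lists and the dotted line is the median of all genes, -0.33. Disease-associated genes lie high on the right and homeostatic genes mostly below 0. The diagonal of dark points at the lower left is the 174 genes with no count in demyelination, whose fitted fold changes depend on the prior count.

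Apoe, the lipoprotein that carries cholesterol between brain cells, had a higher level in every demyelination sum than in any untreated one. It stood at 666, 345, 1781 and 219 CPM in untreated replicates 1 to 4 and at 103812, 113621, 112588 and 71632 in demyelination. The log2 fold change was 7.06 ± 0.66 (adjusted p = 4.83e-05; spike-in value 5.91), from 753 ± 711 to 100413 ± 19686 CPM. Apoe (ENSMUSG00000002985) lies on chromosome 7, 19696109 to 19699188, minus strand, on GRCm38.

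Spp1, which encodes the secreted phosphoprotein osteopontin, went from 12.5, 36.1, 24.4 and 4.00 CPM to 22204, 11896, 13703 and 18419 (log2 fold change 9.75 ± 0.80, adjusted p = 5.33e-06). Spp1 lies on chromosome 5, 104435118 to 104441050, plus strand. Cst7 encodes cystatin F, an inhibitor of lysosomal cathepsins. Its untreated sums held 2.34, 2.31, 1.30 and 0 CPM, and its demyelination sums 1938, 3002, 2328 and 3016 (log2 fold change 10.74 ± 0.91, adjusted p = 1.87e-06). Cst7 lies on chromosome 2, 150570415 to 150578944, plus strand. The groups did not overlap for either gene, and both were also called with spike-in scaling (8.39 for Spp1 and 9.56 for Cst7).

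Tmem119, a membrane protein used to tell microglia from other macrophages, fell. It was at 2315, 3798, 2674 and 3627 CPM in the untreated sums and at 462, 384, 552 and 175 in demyelination (log2 fold change -2.98 ± 0.34, adjusted p = 3.35e-05; spike-in value -4.20). Every demyelination sum lay below every untreated one, and replicate 4 was the lowest. Tmem119 lies on chromosome 5, 113793729 to 113800516, minus strand.

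**Figure D2:**
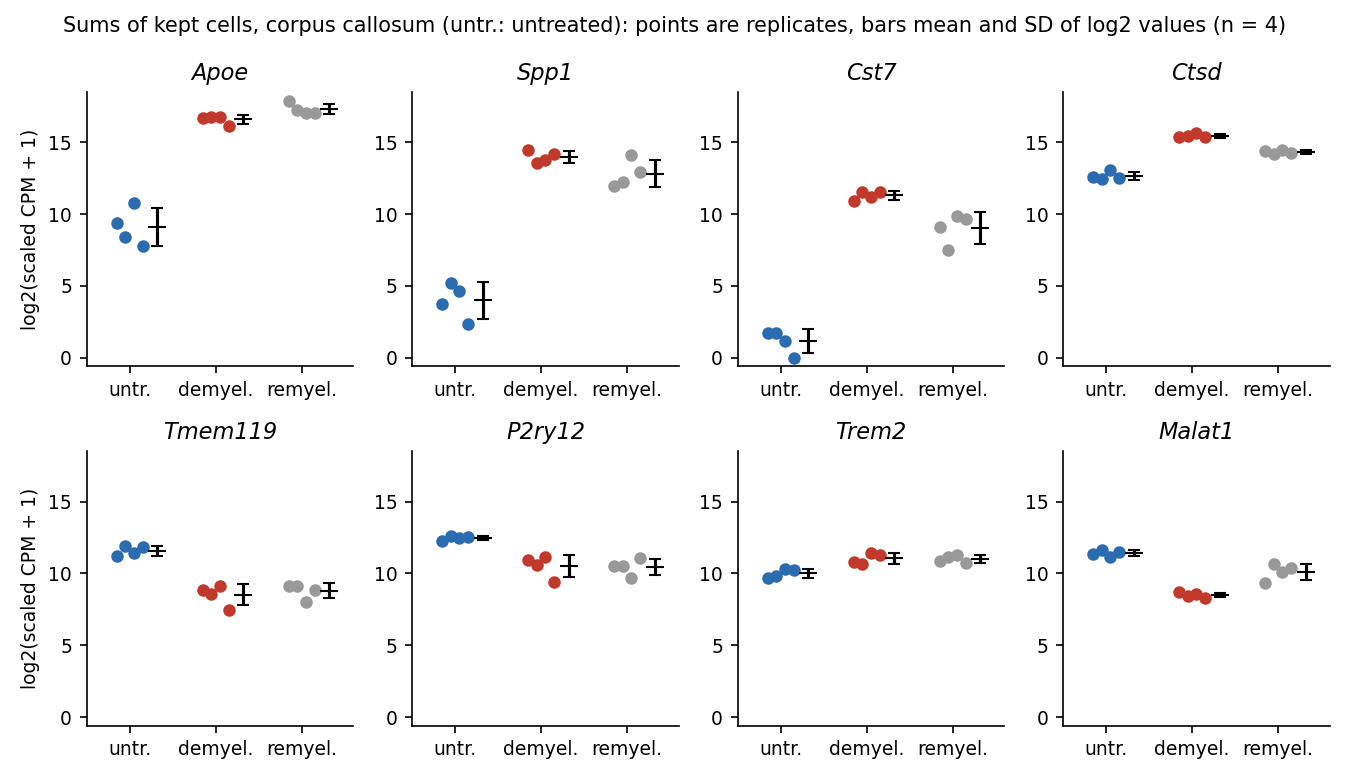
Level of 8 genes as log2(scaled CPM + 1) in each replicate sum of untreated, demyelination and remyelination corpus callosum; bars give the mean and SD of the 4 log2 values. Apoe, Spp1, Cst7, Ctsd and Trem2 are higher in all 4 demyelination sums than in the untreated ones, and Tmem119, P2ry12 and Malat1 are lower in all 4. With spike-in scaling the Trem2 log2 fold change is -0.14.

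Of 25 homeostatic genes, all tested, 13 fell and 1 rose, with a median log2 fold change of -0.86. With spike-in scaling 20 were called lower and none higher. Leaving out 1 replicate at a time left 10 to 12 of them lower. The summed level of the list was 83915 to 92863 CPM in the untreated sums and 42126 to 56380.2 in demyelination. The purine receptor P2ry12, through which microglial processes move towards injury, was at 4836, 6245, 5547 and 5847 CPM untreated and at 1912, 1565, 2277 and 671 in demyelination (-1.81 ± 0.31, adjusted p = 0.0022). P2ry13, its neighbour in the genome and a purine receptor too, fell from 2072 ± 479 to 442 ± 143 CPM (-2.23 ± 0.37, adjusted p = 0.00183). Again replicate 4 held the lowest P2ry12 level, and the groups did not overlap.

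Other surface genes of the list fell as well. Selplg, a ligand of selectins, went from 4608 ± 246 to 1144 ± 206 CPM (-2.01 ± 0.18, adjusted p = 3.67e-06). Siglech, a lectin that binds sialic acid, went from 1937 ± 408 to 517 ± 234, and Cx3cr1, the receptor of the neuronal chemokine fractalkine, from 4788 ± 300 to 2302 ± 354 CPM. Slc2a5, the fructose transporter GLUT5, went from 1087 ± 336 to 97.8 ± 55.9 CPM (-3.48 ± 0.61, adjusted p = 0.00256), the steepest fitted fall of the list among genes with counts in both groups. Adgrg1, an adhesion receptor, Gpr34, a receptor of lysophosphatidylserine, and Tgfbr1, a subunit of the TGF-beta receptor, also fell (-3.04, -0.86 and -1.11), Tgfbr1 in 5 of 8 fits without 1 replicate. So did Cst3, the secreted protease inhibitor cystatin C, from 34769 ± 4673 to 14300 ± 1869 CPM. Sall1, a transcription factor of microglial identity, fell from 429 ± 75.03 to 127 ± 57.1 CPM (adjusted p = 0.0199), though it was called in only 2 of the 8 fits without 1 replicate. Gpr165, an orphan receptor, had 1338 counts in the untreated group and 0 in demyelination, at least 559.6-fold lower against a floor of 3 counts over the group, and its call was lost in all 8 of those fits.

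Part of the list was not called lower in the reported fit. Csf1r, the receptor that microglia need to survive, had a log2 fold change of -0.53 ± 0.18 (adjusted p = 0.0849). Mef2c, a transcription factor, had one of -0.11 ± 0.20. Both were called lower with spike-in scaling (-1.72 and -1.28) and by limma on mean log values per cell. Csf1r was also called lower with upper-quartile scaling, DESeq2, thinned wells and a filter for genes read in 20% of cells. Fcrls, an Fc receptor-like gene, stood at 221, 615, 364.4 and 1273 CPM untreated and at 3717, 3310, 1406 and 2800 in demyelination. Its groups did not overlap, but it missed the threshold (2.18 ± 0.68, adjusted p = 0.0696). Sparc, a matrix protein, was the member that rose, from 3883 ± 170 to 6486 ± 1129 CPM (0.74 ± 0.19, adjusted p = 0.033); it was called in 1 of 8 fits without 1 replicate, and its spike-in value was -0.45.

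All 33 disease-associated genes tested rose, with a median log2 fold change of 3.84 and between 30 and 33 called when 1 replicate was left out. Their summed level was 16619.6 to 25713 CPM untreated and 225674 to 270483 in demyelination. With spike-in scaling 24 were called higher and none lower, and Trem2 had a value of -0.14 and was not called. Clec7a, the beta-glucan receptor dectin-1, had 1 count in 173 untreated cells and 49214 in demyelination. That is a ratio of 39224 (95% counting interval 7040 to 1549300), with 668 to 879 CPM in the 4 demyelination sums. Itgax, the integrin CD11c, went from 9.91 ± 7.17 to 434 ± 39.1 CPM (5.45 ± 0.54), and Lyz2, a lysozyme of myeloid cells, from 160 ± 121 to 8902 ± 2518 (5.80 ± 0.51). Ank, a transporter of pyrophosphate, rose from 27.5 ± 15.6 to 1167 ± 100 CPM (5.40 ± 0.45), and Cd9, a tetraspanin, from 587 ± 112 to 2555 ± 437, the latter not called with spike-in scaling.

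Members differed in how evenly they rose. Gpnmb, a membrane glycoprotein of lysosome-rich macrophages, was at 673, 182, 1634 and 2822 CPM in the demyelination sums, and Lgals3, the secreted lectin galectin-3, at 735, 247, 152 and 1312. Both were highest in replicate 4 and still above all untreated sums, the highest of which were 11.3 and 1.94 CPM. Axl, a receptor for phosphatidylserine on dying cells, held 1144, 1094, 1189 and 1277 CPM, close to even, against 0 to 9.66 untreated. The weakest calls of the list were Cd83, an activation marker (1.96 ± 0.46, adjusted p = 0.0219), and Cd74, the invariant chain of class II molecules (3.84 ± 1.01, adjusted p = 0.0478), called in 5 and 1 of the 8 fits without 1 replicate. Cd74 was also not called without wells carrying border macrophage or monocyte genes, a setting that left out 1 untreated well and 0 demyelination wells. Lpl was called in the 4 fits without 1 untreated replicate and in none of the 4 without 1 demyelination replicate; untreated replicate 1 alone held 57.4 CPM of it, against at most 2.39 in the other 3.

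**Figure D3:**
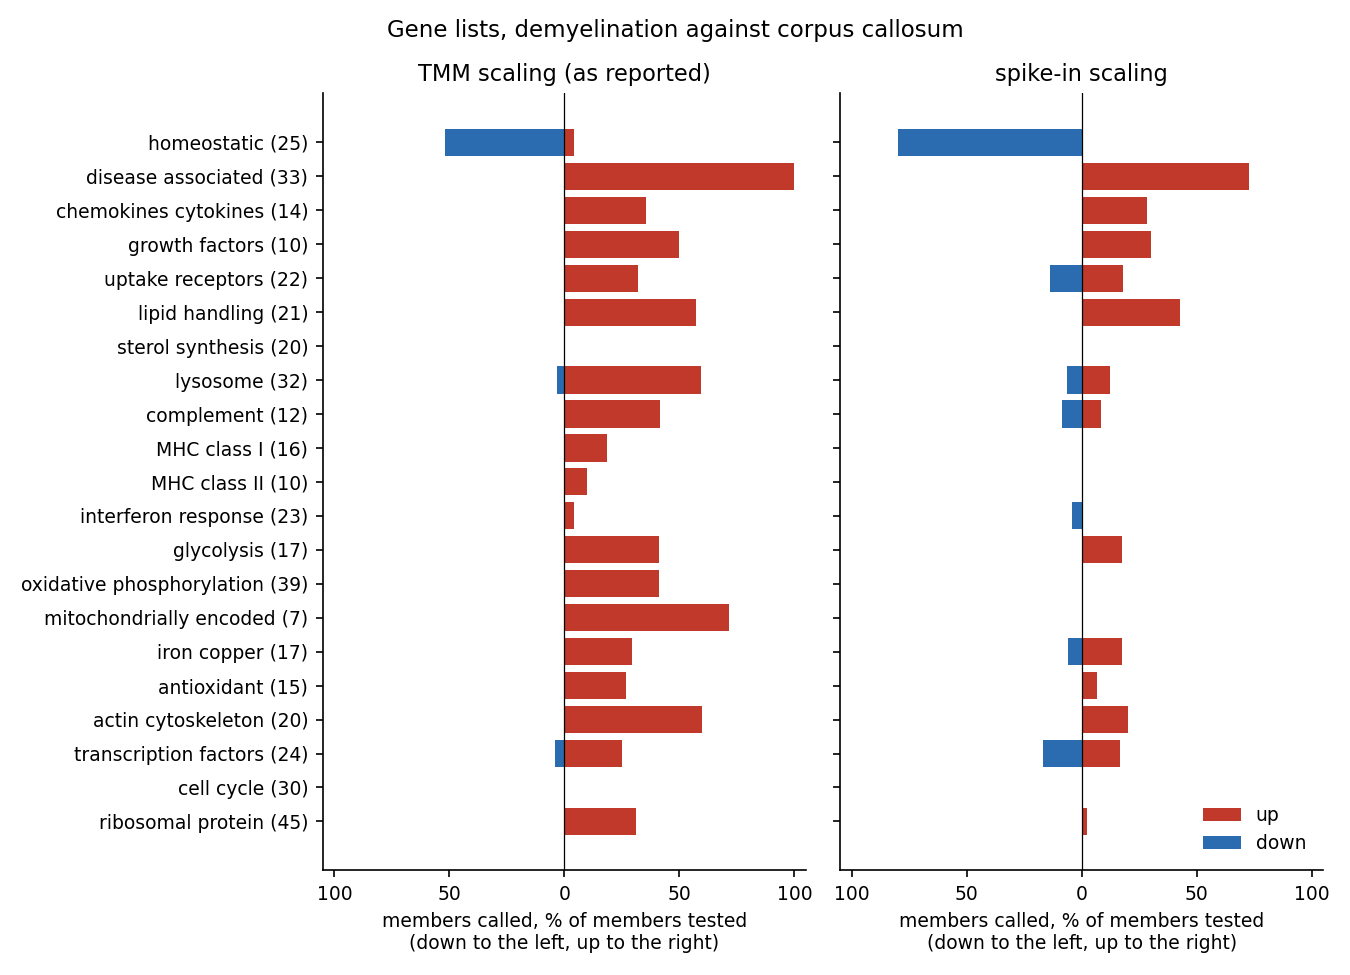
Share of tested members of each gene list called lower (blue, to the left) and higher (red, to the right) in demyelination, with TMM scaling on the left panel and spike-in scaling on the right; the number tested stands after each name. Disease-associated genes go from 33 to 24 called higher with spike-in scaling and homeostatic genes from 13 to 20 called lower, lysosomal genes go from 19 to 4 called higher, and the mitochondrially encoded, oxidative phosphorylation and MHC calls are lost.

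Of 32 lysosomal genes tested, 19 rose and 1 fell (median log2 fold change 1.44). With spike-in scaling 4 were higher and 2 lower, and 3 of the 19 that rose had values below 0 there: Psap, Man2b1 and Atp6ap1 (-0.36, -0.22 and -0.11; named after their values were seen), the last 2 called in 5 and 2 of 8 fits without 1 replicate. The smallest p-values of the list were those of Ctsd and Ctsb, cathepsins that digest material taken up. Ctsd (cathepsin D; chromosome 7, 142375911 to 142388038, minus strand) was at 6222, 5586, 8643 and 5777 CPM untreated and at 42425, 43952, 50577 and 41525 in demyelination (2.77 ± 0.14, adjusted p = 5.09e-09). Ctsb (cathepsin B) went from 2103, 2333, 2436 and 1991 to 14556, 20129, 23419 and 22644 CPM (3.19 ± 0.18, adjusted p = 2.87e-08). For both genes the groups lay far apart, the spread within them was small, and the calls held with spike-in scaling (1.58 and 2.00). Ctsl (cathepsin L) rose from 716 ± 153 to 3853 ± 155 CPM, and Cd63, a tetraspanin of late endosomes, from 58.6 ± 25.8 to 998 ± 149. Ctsz (cathepsin Z) rose from 2280 ± 502 to 9924 ± 818 and Grn, the precursor of the lysosomal granulins, from 1380 ± 141 to 5830 ± 627; the spike-in value was 0.88 for each and not called. The member that fell was Lgmn, an asparagine-specific protease (5250 ± 406 to 3528 ± 306 CPM, adjusted p = 0.0244), named after its value was seen and called in 1 of 8 fits without 1 replicate.

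Lysosomal genes are known to share an E-box, CACGTG, in their promoters, the core of the element bound by TFEB and its relatives. Of 33 lysosomal genes 26 had a promoter in the RefSeq table for GRCm38.p6 (250 bases before to 50 after a start), and 10 of these 26 (38.5%) held CACGTG, which reads the same on both strands. Among all genes with a promoter the share was 8.09% of 27025 (7.15% of 32851 promoters). Of the 17 that rose and had a promoter, 7 held it (41.2%), as did Lgmn, which fell, and Mcoln1 and Gla, which were not called. Gla, a lysosomal galactosidase, was at 5.28 ± 7.94 and 107 ± 25.8 CPM without overlap (adjusted p = 0.0546), and was called higher by DESeq2. The PU.1 letters GAGGAAGT, on either strand, were in 4 of the 26 (15.4%; 3.69% of all genes) and the AP-1 letters TGACTCA or TGAGTCA in 3 (11.5%; 5.95%); in Glb1 the AP-1 and E-box matches overlapped. Of the genes Apoe, Spp1, Cst7 and Tmem119, 3 were matched, none held CACGTG, and Spp1 alone held the PU.1 letters. A match describes letters and not a bound site. The 250 bases before the start are shown for Ctsd, the lysosomal gene with the smallest p, at chr7:142387828-142388077 on the minus strand (the RefSeq start lies inside the GENCODE gene given above, so most of this window is within that gene), and for Lamp1, the member with the most E-boxes, at chr8:13158911-13159160 on the plus strand. Lamp1 encodes a major glycoprotein of the lysosomal membrane, rose from 931 ± 285 to 2725 ± 370 CPM (1.55 ± 0.23, spike-in value 0.31 and not called), and was picked after its values were seen. Capitals mark CACGTG, and both sequences run 5′ to 3′ along the gene:
Ctsd: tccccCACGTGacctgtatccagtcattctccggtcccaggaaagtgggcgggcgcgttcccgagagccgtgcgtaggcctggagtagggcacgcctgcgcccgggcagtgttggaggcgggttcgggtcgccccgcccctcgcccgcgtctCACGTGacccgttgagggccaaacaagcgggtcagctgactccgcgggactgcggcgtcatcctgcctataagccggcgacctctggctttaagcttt
Lamp1: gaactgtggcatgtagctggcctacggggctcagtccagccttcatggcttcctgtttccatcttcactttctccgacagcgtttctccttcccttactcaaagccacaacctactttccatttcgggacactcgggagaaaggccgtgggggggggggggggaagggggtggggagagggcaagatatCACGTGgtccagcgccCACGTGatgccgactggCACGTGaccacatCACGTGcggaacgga

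Lipid handling changed at the level of transport and storage. Of 21 genes tested, 12 rose and none fell (median log2 fold change 2.29; 9 higher and none lower with spike-in scaling). Apoc1, a lipoprotein component encoded beside Apoe, went from 1.65 ± 1.88 to 758 ± 278 CPM (8.85 ± 0.78). Apoc4, from the same cluster, had 0 counts in all 4 untreated sums and 70.8, 136, 93.0 and 107.7 CPM in demyelination, at least 1738-fold higher against a floor of 3 counts over the group. Plin2, which coats lipid droplets, rose from 51.2 ± 17.7 to 745 ± 139 CPM, and Fabp5, a fatty acid carrier, from 0.19 ± 0.23 to 171 ± 95.1. Npc2, which moves cholesterol out of lysosomes, rose from 596 ± 136 to 2463 ± 220 (2.05 ± 0.19), but was not called with spike-in scaling (0.83). Lpl, the lipase that frees fatty acids from lipoproteins, had 15.6 ± 27.9 and 1654 ± 288 CPM. None of 20 sterol synthesis genes was called by edgeR with either scaling or by DESeq2, 1 was called lower by limma on mean log values, and 1 was higher at an unadjusted edgeR p under 0.05. Their median was 0.46, or -0.85 with spike-in scaling. Lss, the synthase that makes lanosterol, had the smallest p (0.20 ± 0.40 and 20.1 ± 33.4 CPM, edgeR adjusted p = 0.173). Its level in demyelination came mostly from 1 sum, at 69.8 CPM, with the next at 8.88 and the lowest at 0.41.

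Among secreted signals, 5 of 14 chemokines and cytokines tested rose and none fell, and 9 of the 23 listed were too low to test. Ccl3, a chemokine that draws myeloid cells, was at 0.14, 0, 0.22 and 0.09 CPM untreated and at 469, 357, 653 and 622 in demyelination (12.02 ± 0.81, adjusted p = 2.37e-07). Ccl6 rose from 236 ± 87.9 to 3358 ± 738 CPM, Cxcl14 from 0.21 ± 0.27 to 201 ± 78.8, and Ccl4, a near relative of Ccl3, from 2.79 ± 2.43 to 230 ± 167. Cxcl16, a scavenger receptor and chemokine, rose 2.57 ± 0.49 on the log2 scale and was not called with spike-in scaling (1.37). Ccl9 missed the threshold (1.96 ± 0.59, adjusted p = 0.0628). Thus all 5 were chemokines, and the 2 compared groups did not overlap for any of them. The call of Ccl4 was lost when the spinal cord sums were added to the fit.

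Of 10 growth factors tested 5 rose, 4 of them members of other lists here as well. Igf1, insulin-like growth factor 1, was at 0.14, 6.002, 0.58 and 8.09 CPM untreated and at 564, 293, 340 and 406 in demyelination (6.76 ± 0.99, adjusted p = 0.000514). Csf1, a ligand of the receptor Csf1r, rose from 5.92 ± 4.82 to 182 ± 110 CPM (4.94 ± 0.91), and Gas6, a bridging ligand of Axl, from 60.8 ± 53.1 to 414 ± 93.3 (2.76 ± 0.69, adjusted p = 0.0325; not called with spike-in scaling and called in 3 of 8 fits without 1 replicate). Lgals3 and Grn were the others. Pdgfa and Pdgfb, chains of a mitogen of oligodendrocyte precursors, were not called (1.65 ± 0.71 and -0.10 ± 0.70). Tgfb1, Hbegf and Fgf1 were not called either, and Vegfa and Bmp2 were too low to test.

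Receptors of uptake rose in 7 of 22 cases and none fell; their median was 1.01, and -0.03 with spike-in scaling, where 4 were higher and 3 lower. Besides Clec7a and Axl, the scavenger receptor Msr1 rose from 0.80 ± 1.59 to 147 ± 36.2 CPM (7.48 ± 1.40, adjusted p = 0.00427). Tyrobp, the signalling partner of Trem2, rose from 1221 ± 350 to 6677 ± 498 CPM (2.45 ± 0.19, adjusted p = 1.13e-06; spike-in value 1.26). Trem2, the lipid-sensing receptor itself, was at 806, 910, 1276 and 1211 CPM untreated and at 1766, 1617, 2801 and 2501 in demyelination, without overlap (1.05 ± 0.22, adjusted p = 0.0107), and its spike-in value was -0.14. Fcer1g, the shared chain of Fc receptors, rose 1.76 ± 0.20, with 0.56 and no call under spike-in scaling.

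In the complement list 5 of 12 genes tested rose, 2 to 4 without 1 replicate, and the median was 0.79 with TMM and -0.51 with spike-in scaling. Itgax led it, and C3ar1, the receptor of the C3a fragment, rose from 123 ± 25.2 to 500 ± 196 CPM (2.03 ± 0.29; spike-in value 0.86, not called). The C1q chains, which start the classical pathway, differed little: C1qb had 0.68 ± 0.18, C1qc 0.73 ± 0.18 (adjusted p = 0.0369 and 0.0322, each called in 2 of 8 fits without 1 replicate) and C1qa 0.54 ± 0.16 (adjusted p = 0.0595), and all 3 were negative with spike-in scaling (-0.54, -0.49 and -0.66). Itgb2, the beta chain that pairs with CD11c, was called (1.18 ± 0.32, adjusted p = 0.0454) in none of the 8 fits without 1 replicate, and its spike-in value was -0.01.

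Calls for antigen presentation and interferon response stand here beside the 3.08% of all genes tested that rose. Of 16 class I genes 3 rose, and none was called with spike-in scaling, where the median went from 0.81 to -0.39. B2m, the light chain of class I molecules, rose from 1547 ± 256 to 4952 ± 226 CPM (1.68 ± 0.19), and the heavy chain H2-D1 from 416 ± 52.3 to 1558 ± 723. Of 10 class II genes Cd74 was the one called by edgeR, at 20.0, 18.8, 84.7 and 1.74 CPM untreated and 477, 120, 804 and 391.95 in demyelination. H2-Aa, an alpha chain, was at 10.7, 0.64, 303.7 and 43.1 CPM in the demyelination sums and was not called (adjusted p = 0.0625). Replicate 3 was the highest for both and replicate 2 the lowest. Ciita, their regulator, had 4.81 ± 5.73 and 7.46 ± 14.9 CPM. Of 23 interferon response genes tested by edgeR, only Lgals3bp, a secreted binding partner of galectins, was called (84.1 ± 41.3 to 491 ± 192 CPM), and with spike-in scaling it was not. Ifit3, an interferon-induced gene, had 166 counts untreated and 0 in demyelination (adjusted p = 0.0612), and was called lower with spike-in scaling.

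Energy metabolism genes rose in part with TMM scaling. Of 17 glycolysis genes 7 rose (4 to 6 without 1 replicate; 3 with spike-in scaling): Aldoa, an aldolase, went from 241 ± 91.8 to 2027 ± 119 CPM (3.07 ± 0.30), Pkm, pyruvate kinase, from 78.5 ± 57.8 to 745 ± 98.9, and Ldha, lactate dehydrogenase, from 120 ± 20.5 to 891 ± 30.1. Of 39 oxidative phosphorylation genes encoded in the nucleus 16 rose, and 6 to 10 did without 1 replicate; Cox4i1, a subunit of cytochrome oxidase, went from 203 ± 81.7 to 805 ± 90.1 CPM (1.98 ± 0.29). None of the 39 was called with spike-in scaling, where their median was 0.39. Of the 13 mitochondrially encoded genes, 7 had enough counts to test and 5 rose, with a median of 1.08 that became -0.06 with spike-in scaling. For mt-Co1, another oxidase subunit, the values were 1899 ± 538 and 4310 ± 904 CPM (1.18 ± 0.20; spike-in value 0.03). Copies of mitochondrial sequence in the nuclear genome can take such reads, and the other 6 members had almost no counts in either group.

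Iron storage genes rose: Fth1, the ferritin heavy chain, from 1197 ± 372 to 9557 ± 882 CPM (3.00 ± 0.26, adjusted p = 1.97e-06), and Ftl1, the light chain, from 160 ± 28.0 to 981 ± 77.7 (2.61 ± 0.22), and both were also called with spike-in scaling (1.82 and 1.41). Atox1, the chaperone that hands copper to its pumps, rose from 43.3 ± 24.2 to 287 ± 21.7 CPM (2.72 ± 0.42; spike-in value 1.61, called). Mt1, a metallothionein that binds zinc and copper, rose 2.56 ± 0.49, from 24.5 ± 16.6 to 144 ± 39.2 CPM. Together with the iron transporter Slc11a1 these were the 5 of 17 iron and copper genes that rose; the list's median was 0.78, and -0.44 with spike-in scaling. Among 15 antioxidant genes 4 rose, led by the peroxiredoxin Prdx1 (2.80 ± 0.38), the only one called with spike-in scaling.

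Of 20 actin cytoskeleton genes 12 rose (4 with spike-in scaling). Tmsb4x, which holds actin monomers, went from 3286 ± 1091 to 15609 ± 942 CPM (2.25 ± 0.19), and Anxa2, an annexin at membranes, from 6.9999 ± 6.75 to 334 ± 122 (5.57 ± 0.62). Actb rose 1.31 ± 0.15 but had a spike-in value of 0.14. Ribosomal protein genes rose in 14 of 45 cases, 9 to 12 without 1 replicate and 1 with spike-in scaling; Rpl32 was that one (75.3 ± 37.4 to 441 ± 28.5 CPM). Many of them have near-identical pseudogenes, so their counts are uncertain.

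Of 24 transcription factors tested 6 rose and 1, Sall1, fell; with spike-in scaling 4 were higher and 4 lower. Hif1a, the hypoxia-induced factor, rose from 47.1 ± 24.3 to 375 ± 73.3 CPM (2.99 ± 0.43), Bhlhe40 from 2.15 ± 2.36 to 209 ± 37.9 (6.60 ± 1.06) and Atf3, a stress factor, from 7.15 ± 8.62 to 147 ± 30.3 (4.36 ± 0.75). Egr1, an immediate early gene, rose from 0.77 ± 0.75 to 53.0 ± 38.2 CPM. Bhlhe41, the relative of Bhlhe40, was called (1.24 ± 0.29) in 3 of 8 fits without 1 replicate. None of 30 cell cycle genes was called by edgeR with either scaling or by DESeq2, while limma on mean log values called 4 higher and 1 was higher at an unadjusted edgeR p under 0.05. Their median was 1.30, and Mki67, a marker of dividing cells, was at 24.8 ± 26.8 and 49.7 ± 40.5 CPM (adjusted p = 0.776).

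Outside the lists, Fam20c, a kinase of secreted proteins that has osteopontin among its targets, was among the 10 rises of smallest p, from 15.9, 11.5, 12.3 and 9.83 CPM to 635, 667, 362 and 520 (5.46 ± 0.38, adjusted p = 3.46e-07). Ucp2, an inner mitochondrial membrane carrier, went from 340 ± 81.2 to 2669 ± 326 CPM (2.97 ± 0.23). The fall of smallest p was that of Malat1, a nuclear long non-coding RNA, at 2598, 3182, 2233 and 2883 CPM untreated and 417, 345, 370 and 315 in demyelination (-2.91 ± 0.25, adjusted p = 2e-06). Tmem173, the DNA sensing adaptor STING, fell from 1035 ± 196 to 254.8 ± 109 CPM (-2.02 ± 0.33). The predicted genes Gm10800 and Gm26917 fell too (-3.44 ± 0.45 and -2.28 ± 0.32); such entries can gather reads of repeats, and their counts are uncertain.

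The difference was spread over most cells. With every cell thinned to 20000 counts, an Apoe read was found in 100% of demyelination cells in all 4 replicates and in 44.6 ± 9.25% of untreated cells. Spp1 was read in 87.2 ± 7.20% and 5.17 ± 2.67%, Cst7 in 81.1 ± 6.49% and 1.69 ± 1.13%, and Tmem119 in 43.7 ± 12.2% and 98.9 ± 2.22%. Of 12 genes in this panel 11 had groups that did not overlap (exact two-sided permutation test, p = 0.0286 each, 0.0312 adjusted over the 12). The other was Mki67, with 7.34 ± 2.82% and 5.22 ± 2.32% (exact permutation test, p = 0.314). The panel was chosen with earlier results of these data known, and the 11 genes were also called in the fit above. Their p-values are therefore not separate evidence, and any groups without overlap give the same p whatever the size of the difference. Such overlaps were not counted over all genes. Without thinning, the shares were 100% and 55.6% for Apoe, 91.8% and 2.29% for Cst7, 56.7% and 99.4% for Tmem119, and 7.95% and 9.25% for Mki67.

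Not all of these genes were read in the same share of cells. Lpl was read in 74.7 ± 4.51% and Axl in 78.9 ± 8.68% of thinned demyelination cells, but Clec7a in 60.1 ± 5.40%, Itgax in 48.1 ± 5.07%, Igf1 in 47.7 ± 7.28% and Ccl4 in 24.0 ± 6.82%. In untreated cells the mean share of each gene was at most 4.00%, and the highest single replicate was 8.89%, for Lpl. P2ry12 was read in 62.1 ± 13.1% against 99.5 ± 1.09%. Stray reads were present in the wells without a cell. The 4 such wells on the demyelination plate had a median of 653 gene counts and held 227 Apoe reads in 4 of 4 wells and 22 Spp1 reads in 4 of 4; Cst7 was read in 1 of them and Tmem119 in none. On the other plate, at a median of 513.5 counts, Tmem119 was read in 4 of 4 and Apoe in none. A single read of Apoe or Spp1 in a demyelination cell, or of Tmem119 in an untreated one, therefore counts as background. With a minimum of 5 reads the shares were 100% and 38.3 ± 11.1% for Apoe, 78.0 ± 11.3% and 4.00 ± 2.03% for Spp1, 75.1 ± 11.8% and 0% for Cst7, and 32.5 ± 10.5% and 96.7 ± 3.81% for Tmem119.

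**Figure D4:**
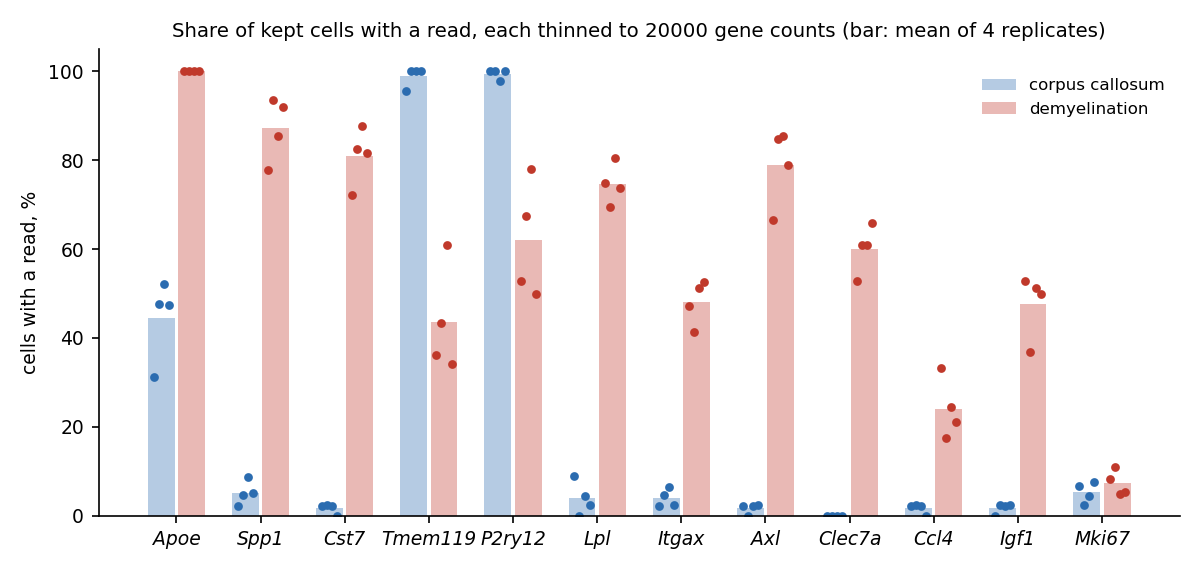
Percent of kept cells with at least 1 read of 12 genes after thinning each cell to 20000 gene counts; bars are means of 4 replicates and points are replicates. Apoe is read in all demyelination cells, Tmem119 and P2ry12 in fewer demyelination than untreated cells, and the Mki67 replicates overlap.

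Reads of Tmem119 and Cst7 were also counted cell by cell. Among the 161 thinned demyelination cells, 61 (37.9%) had reads of both genes, 70 (43.5%) of Cst7 alone, 10 (6.2%) of Tmem119 alone and 20 (12.4%) of neither. Cells with both numbered 8 of 36, 19 of 46, 23 of 41 and 11 of 38 in replicates 1 to 4. Of the 173 untreated cells 168 had Tmem119 alone and 3 had both. Spp1 and Cst7 were read together in 119 of 161 demyelination cells (73.9%) and in 0 of 173 untreated ones. By counting error alone, with the cells of 4 replicates pooled, that 0 allows up to 1.73% of thinned untreated cells with reads of both, and it sets no limit on cells that express them.

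Levels per cell, taken from all reads, were wide within demyelination. Apoe had a median of 74300 CPM per demyelination cell, with 18541 at the 10th and 177120.0 at the 90th percentile, while 77 of 173 untreated cells had no Apoe read. Tmem119 had no read in 69 of 161 demyelination cells and a median of 3.39 CPM, but 1057 CPM at the 90th percentile; 1 untreated cell lacked it. For Cst7 the median was 1363 CPM in demyelination with 13 cells lacking a read, and 169 of 173 untreated cells lacked one.

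**Figure D5:**
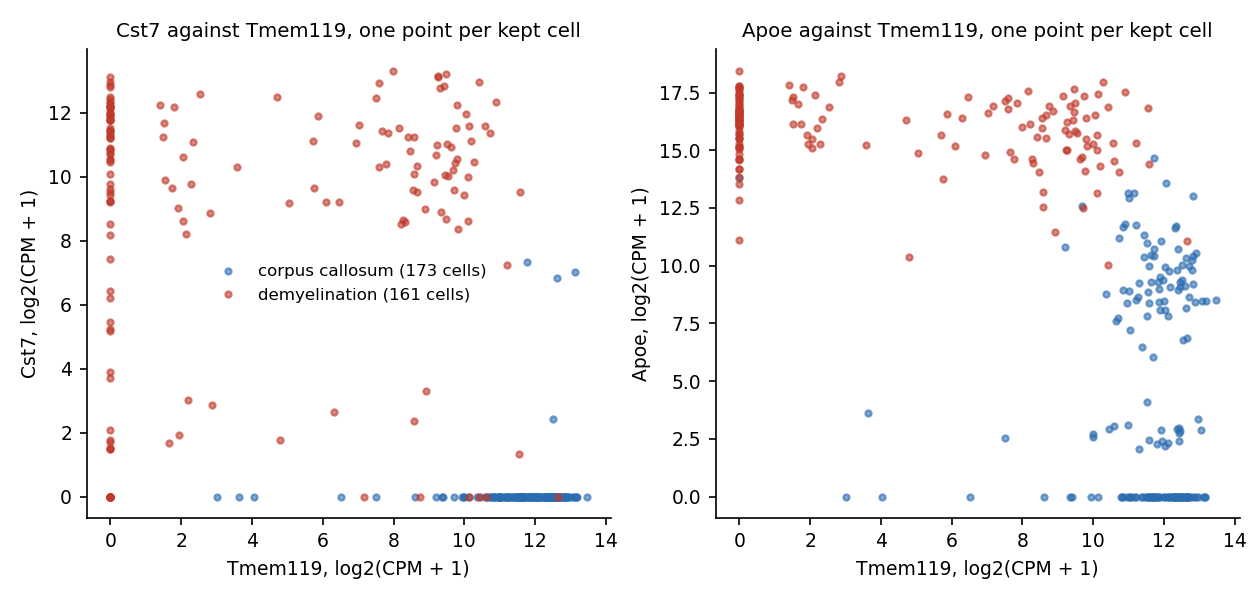
Each point is 1 kept cell, with log2(CPM + 1) from all its reads for Tmem119 on the x axes and for Cst7 (left) and Apoe (right) on the y axes. Untreated cells gather at high Tmem119 with Cst7 at 0, and demyelination cells lie higher on both y axes, 69 of 161 of them at a Tmem119 of 0.

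Markers of other cell types stayed low or did not differ by the test, with 2 exceptions. Fn1, a matrix protein on the monocyte list, rose from 4.46, 10.3, 2.39 and 0.87 CPM to 1041, 733, 458 and 1699 (7.77 ± 1.32, adjusted p = 0.00237). Its summed list was at 25.3 to 143 CPM untreated (mean 76.6) and at 462 to 1729 in demyelination (mean 994.5). Fn1 made up nearly all of the demyelination sums and little of the untreated mean, so the rise of the list is that of Fn1 alone. The defining monocyte genes Ly6c2 and Chil3 were at 0 in demyelination, but had only 26 and 12 counts in the untreated group. Ccr2 had 18.3 ± 15.3 and 6.29 ± 11.3 CPM. Stmn2, a neuronal gene, had 2618 counts untreated, mostly in replicate 1, and 1 in demyelination, and was called lower in 1 of 8 fits without 1 replicate. Of the border macrophage list 6 of 10 genes could be tested and none was called by edgeR (1 higher and 1 lower at an unadjusted p under 0.05, and the same numbers called by DESeq2 and by limma); its sum was 45.9 to 241.5 CPM untreated and 91.1 to 240.3 in demyelination, with Stab1 the most abundant (104 ± 77.9 and 110 ± 33.6) and Lyve1, F13a1 and Cd209f at 0 in demyelination. Without wells carrying 2 or more border macrophage or monocyte genes, 1 untreated well and 0 demyelination wells, 429 genes rose and 286 fell.

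The most abundant markers of the other lists, none called in the reported fit, were as follows. Mbp, a myelin protein gene, was at 53.6 ± 25.4 and 165 ± 94.2 CPM (adjusted p = 0.147), and Cspg4 of oligodendrocyte precursors at 2.62 ± 2.72 and 46.2 ± 25.6. The astrocyte transporter Slc1a3 was at 109 ± 47.5 and 34.3 ± 9.32 CPM (adjusted p = 0.0826), and Flt1, a growth factor receptor of endothelium, at 16.3 ± 16.4 and 123 ± 58.5 (adjusted p = 0.0628). Csf3r of neutrophils was at 522 ± 91.9 and 401 ± 63.4, Ighm of B cells at 493 ± 162 and 303 ± 55.2, and Klrb1c of natural killer cells at 5.96 ± 1.57 and 10.3 ± 8.996. Under other settings some of these markers were called. DESeq2 and limma on mean log values called Cspg4 and Flt1 higher and Slc1a3 lower. Spike-in scaling and limma called Csf3r and Ighm lower, and Slc1a3 was lower with spike-in scaling too. Mbp and Klrb1c were called in no setting. The part of RNA from other cell types in the gene groups above was not tested.

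The plate mates give the levels that the design allows beside these, with no test of plate. Of the 433 genes that rose, 413 had all 4 demyelination sums above all 4 spinal cord sums, which share the plate of the untreated corpus callosum. Against the remyelination sums, which share the demyelination plate, 63 of the 433 were above and 11 below. Of the 292 genes that fell, 175 had all demyelination sums below those of spinal cord and 29 below those of remyelination. These genes were picked for their difference from untreated corpus callosum, so the counts against spinal cord are not separate evidence. The same counts over all genes tested were not made. On the scale of these 4 groups Apoe had 802.6 ± 761 CPM in untreated corpus callosum, 226 ± 140 in spinal cord, 109408 ± 21489 in demyelination and 181525 ± 50411 in remyelination, where all 4 sums were above those of demyelination. Cst7 was at 2803 ± 585 in demyelination and 679 ± 372 in remyelination, without overlap. Ccl3 was at 0.06 to 1061 CPM in the spinal cord sums and 390 to 712 in demyelination, so these groups overlapped. Ccl4 overlapped too, at 0 to 496 in spinal cord and 104 to 506 in demyelination. The other chemokines that rose, Ccl6, Cxcl14 and Cxcl16, stood above all spinal cord sums.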

How the data were processed

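The authors deposited raw read counts (whole numbers, not normalized) for each gene in each well. The submitters' processing notes name STAR 2.5.2b, featureCounts 1.5.1 and the build GRCm38, while for annotation release and strand setting the sources used here hold nothing. The strand of a transcript is lost in Smart-seq2, so a gene's reads cannot be separated from those of an overlapping or antisense gene, and reads carry no molecular identifiers, so intervals and floors cover counting error only. Names and positions came from GENCODE on the same build, which held 48349 of 48709 gene identifiers. Wells without a cell numbered 20 in the series and none passed the filters. Wells received 1 sorted cell each, and doublets were not called.

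Kept wells were summed per replicate, and corpus callosum, demyelination and remyelination were fitted together with edgeR 4.0.16 in R 4.3.3 (TMM, minimum count 10, minimum total count 15, robust quasi-likelihood F test, Benjamini-Hochberg over all genes tested at 0.05). Alternatives used limma 3.58.1 and DESeq2 1.42.0. Shares of cells were compared by exact permutation over replicates. The code was tested on simulated data, in which the changed genes had a mean of at least 1000 counts. That floor was raised after a first run with a lower one recovered fewer. Of 50 genes each changed 2-, 4-, 8- and 16-fold, 1, 6, 26 and 34 were called. There was 1 false call, and 0 calls had the wrong sign. Genes that were not called here may therefore still differ. The labels give 4 replicates per group, whereas 3 to 4 mice are named in the design text of the series, so p-values may partly measure spread between samples of 1 mouse. Sums within a group differed far beyond the counting noise of reads (chi-square per degree of freedom 74.1 to 234). The sums hold different cells and reads without molecular identifiers, which can give such values within 1 mouse too. They therefore do not show whether the replicates are separate mice.

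Genes were named by a rule: Apoe, Spp1, Cst7 and Tmem119; the 10 calls of smallest p in each direction with no overlap and at least 50 CPM; any homeostatic or disease-associated gene; the 6 members of smallest p in every other list, or all members of lists of 13 or fewer; the most abundant marker of each other cell type; and the panel genes. Some genes that the rule names are not reported here. Genes outside it are marked as chosen after their values were seen. The members, lists and tests were chosen with earlier results of these data known.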

Additional observations from a re-analysis of the deposited data

Results flagged for a closer look

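In 34 of 290 groups of 4 values examined, the highest or lowest replicate stood apart from the other 3, its gap to the nearest, as a share of the group's range, exceeding Dixon's 95% critical value. Chance flags about 1 in 20 groups. All levels here are scaled CPM of 1 replicate sum.

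In the untreated group the replicate that stood apart was the highest for Lpl (57.4 CPM, the next at 2.39), Stmn2 (173.5, next 12.4), Gpnmb (11.3, next 2.09), Axl (9.66, next 1.23), Apoc1 (4.44), Msr1 (3.19), Mt1 (49.1), Grn (1590), C1qb (3796) and H2-D1 (494.5). It was the lowest for Bhlhe41 (156.5) and Xist (485.5). For Clec7a (0.0723), Cd209f (0.0709), Lss (0.80) and Ly6c2 (2.26) the other 3 untreated sums had no count. The call of Lpl held in the 4 fits without 1 untreated replicate and was lost in the 4 without 1 demyelination replicate, and untreated Stmn2 was mostly that of replicate 1.

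In demyelination the highest replicate stood apart for H2-Aa (303.7 CPM, the next at 43.1), Ciita (29.9, the others at 0), Cd83 (798.8, next 388.7), Lpl (2086), Lss (69.8), Fgf1 (43.6), Ccr2 (23.3) and Stmn2 (0.0622, a single count). The lowest did for Cd63 (776.9), Ldha (846.4) and Pkm (598.5).

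Among shares of untreated cells with a read, 1 replicate stood below the rest for Cst7, Ccl4, Axl and Igf1 (0% each), Tmem119 (95.6%) and P2ry12 (97.8%); the other replicates were 1 or a few cells away. The median number of genes per thinned cell was lowest in demyelination replicate 1 (1161.5, the others 1364.5 to 1404).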

How the results depend on the processing

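The counts of 433 genes up and 292 down changed by more than 1.5 times as follows. Spike-in scaling gave 90 and 1047, DESeq2 650 and 1288, and limma on mean log values per cell 793 and 4342. Fitting only the compared groups gave 768 down, no filter on low counts 166, and thinning each well to 20000 counts 193. Leaving out 1 replicate gave 264 to 325 up and 46 to 65 down. The labels share replicate numbers. Deviations of same-numbered sums had correlations of -0.02 to 0.01, within the -0.04 to 0.05 of differently numbered sums. With 4 sums per group this cannot exclude that the numbers pair the samples, and no source used here states a pairing. With the replicate number as a block, 362 genes were up and 85 down, 350 and 78 of them among those called. The causes were not tested, apart from fewer genes or samples by construction. The other settings stayed within 1.5 times, and 11 of 12 panel genes and 3 of 5 cell measures passed in each.

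With spike-in scaling the sign of the estimate turned for Atp6ap1 (-0.11), C1qb (-0.54), C1qc (-0.49), Itgb2 (-0.014), Man2b1 (-0.22), Psap (-0.36), Sparc (-0.45) and Trem2 (-0.14). With mean log values it turned for C1qb (-0.063), C1qc (-0.083), Ciita (-0.32), Psap (-0.004), Sparc (-0.57) and mt-Co1 (-0.80). Of these turned values only that of Ciita passed its test (limma, adjusted p = 0.0467), and Ciita was not called in the reported fit. Of 94 named genes called, 76 were called in all 8 fits without 1 replicate. Of 882 list counts under alternatives 115 moved by over 1.5 times; with DESeq2, ribosomal protein genes up went from 14 to 23 and complement genes from 5 to 2. No list's median moved with genes of 0 to 3 counts set to their bound or ratio. Depth limits what is said of the 4508 tested genes under 10 CPM, 132 of which were called lower and 2 higher.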

Other observations

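Beside Malat1, 4 other long non-coding RNAs were looked at, chosen after their values were seen, and 2 of them passed the test. Xist, which coats the inactive X chromosome, fell from 581 ± 64.4 to 135 ± 56.3 CPM (-2.11 ± 0.41, adjusted p = 0.00626), and Neat1, the scaffold of paraspeckles, from 116 ± 31.1 to 22.5 ± 13.8 (-2.37 ± 0.60, adjusted p = 0.0348; called in 1 of 8 fits without 1 replicate, and not without the filter on low counts). Kcnq1ot1, an imprinted RNA, was at 107 ± 22.6 and 20.6 ± 12.1 CPM and was not called (adjusted p = 0.0806), and neither was Meg3, at 10.3 ± 7.46 and 0.404 ± 0.728 CPM (adjusted p = 0.323). The Y-linked genes Ddx3y, Eif2s3y and Uty had 0 counts in both groups and Kdm5d had 2 and 4, so both groups read alike at these loci; the labels give no sex.

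Chemokine reads lay in part of the cells. Of 161 thinned demyelination cells, 29 had reads of both Ccl3 and Ccl4, 42 of Ccl3 alone, 9 of Ccl4 alone and 81 of neither (50.3%). Clec7a and P2ry12 were read together in 61 of the 161 cells (37.9%), Clec7a alone in 36 and P2ry12 alone in 40, while in the untreated group 172 of 173 cells had P2ry12 alone.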
